A study of Sus scrofa with 6 samples.

Results

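The 10 genes described here encode matricellular proteins (*SPARC*, *POSTN*, *THBS1*, *THBS2*, *THBS4*, *TNC* and *CCN2*), fibronectin (*FN1*) and proteins of the elastic fibre microfibril (*FBN1* and *MFAP2*). They were taken by their pig Ensembl symbols from a table of read counts, where all 10 were found among 30476 genes, and all 10 were among the 13402 genes left by a filter on low counts. The counts came from RNA-seq of longissimus dorsi, which runs along the back, of 3 UCP1 KI pigs and 3 WT pigs, all 6 months old. UCP1 KI pigs (called KI) carry a *UCP1* gene that was inserted by CRISPR/Cas9 for expression in adipocytes, since pigs lack a working UCP1, and WT pigs carry no insertion. The promoter that drives it and the sex and litter of the pigs are not given in the sources used here. The study asked whether UCP1 made in fat cells changes gene expression in muscle.

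Matricellular proteins are secreted into the extracellular matrix but serve less as building material than as signals, since they bind collagens, growth factors and cell surface receptors and change how cells attach. Elastic fibres have a core of elastin and a sheath of microfibrils, which are made of fibrillins and associated glycoproteins and also hold latent TGF-beta in the matrix. In skeletal muscle these proteins are made largely by fibroblasts and other cells between the fibres, and several rise with loading, injury or fibrosis.

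Total counts per pig lay between 30220951 and 35066624, and TMM scaling factors between 0.781 in WT replicate 2 and 1.18 in KI replicate 2. The 20 most abundant genes held 39.1% to 44.0% of the counts in KI pigs and 44.5% to 56.5% in WT pigs, the highest share being that of WT replicate 2. The tissue label was checked with 11 muscle fibre genes, of which 5 could be looked up by symbol. These 5 genes, among them *ACTA1*, *CKM* and *DES*, summed to between 58440 and 99760 CPM, the reads of a gene relative to the TMM-scaled total, in every pig. The inserted gene could not be looked up by its symbol and was not analysed here, so the counts offer no check of the genotype. With edgeR's quasi-likelihood test, 0 genes had a Benjamini-Hochberg adjusted p under 0.05 (1100, or 8.21%, had an unadjusted p under 0.05, and DESeq2 gave 127 genes at the adjusted limit). A gene is therefore called here at an unadjusted p under 0.05 with an absolute log2 fold change above 0.5, where a negative value means lower in KI pigs.

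*SPARC* and *MFAP2* were lower in KI pigs past both limits, and none of the 10 genes was called higher. The 2 genes are 20% of the 10, whereas 4.34% of all genes tested were called lower and 3.84% higher. The 10 genes were chosen with earlier results of these data known, so the 20% cannot be read as an excess. The count was 1, *SPARC*, without KI replicate 1, KI replicate 2, WT replicate 1 or WT replicate 2 and with library size only, and it was 4 without WT replicate 3 and with DESeq2. A total of 8 genes had a negative log2 fold change and 2, *TNC* and *THBS4*, a positive one. The median log2 fold change of the 10 was -0.70, against -0.02 over all genes tested. It was -0.26 without WT replicate 2 and -0.95 without WT replicate 3, against -0.02 and -0.01 over all genes in those fits. In TMM-scaled CPM every KI pig lay below every WT pig for *SPARC*, *MFAP2* and *CCN2*, and the groups overlapped for the other 7 genes. The same was the case for 7.69% of all genes tested, with 7.59% the other way round. For *MFAP2* and *CCN2* the separation rested on the scaling. Before it, *MFAP2* had 104 and 108 reads in KI replicates 2 and 3 and 95 in WT replicate 3. *CCN2* had 2613 reads in KI replicate 2 and 2607 in WT replicate 3. Adjusted p values of the 10 genes over all genes tested lay between 0.583 for *SPARC* and 0.931 for *THBS4* in edgeR's test with Benjamini-Hochberg adjustment. In whole muscle, fewer cells of a type and less RNA per cell cannot be told apart.

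**Figure D1:**
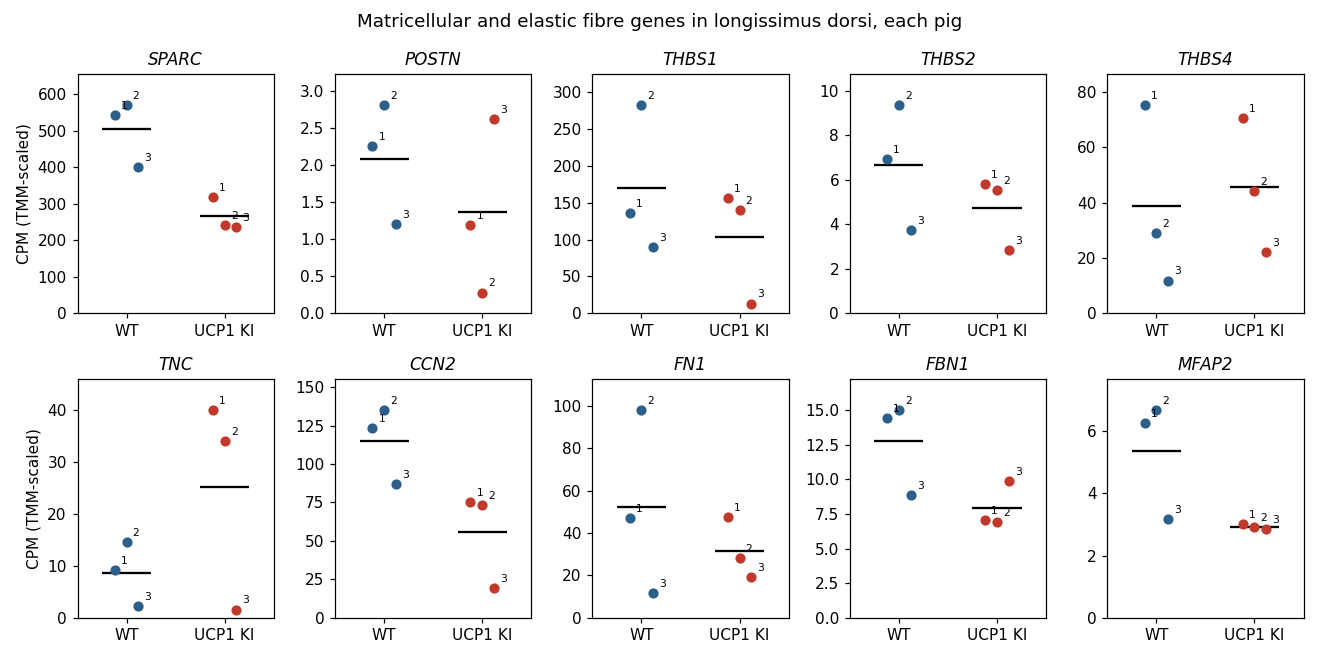
Level of each of the 10 genes in each pig, in TMM-scaled CPM on linear axes that start at 0, with WT pigs in blue, KI pigs in red, the replicate number beside each point and a bar at the mean of 3 pigs. The red points of *SPARC*, *CCN2* and *MFAP2* all lie below the blue ones, and *TNC* spans 1.59 to 40.0 CPM within the KI pigs alone.

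*SPARC* (ENSSSCG00000017082, Sscrofa11.1 chromosome 16, 71368164 to 71380972) encodes osteonectin, a calcium-binding glycoprotein that binds fibrillar collagen and takes part in its deposition. It was measured at 319.6, 243 and 236 CPM in KI replicates 1 to 3, and at 544, 569.6 and 401 CPM in WT replicates 1 to 3. The lowest WT pig was thus above the highest KI pig, and the spread within each group was small, with the highest pig at 1.35 times the lowest among KI pigs and 1.42 times among WT pigs. The KI mean was 266 ± 46.5 CPM and the WT mean 505 ± 90.7 CPM (SD, n = 3 each). On the log2 scale the difference was -0.92 (standard error 0.27), and edgeR gave an unadjusted p of 0.0105. *SPARC* was called in 6 of 6 fits with 1 pig left out, where its log2 fold change lay between -1.07 and -0.83. An exact permutation test, two-sided, gave p = 0.1 for *SPARC*, which is the smallest p that 3 pigs against 3 allow.

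*MFAP2* (ENSSSCG00000003479, chromosome 6, 75607515 to 75615680) encodes a small glycoprotein of the microfibril that binds fibrillin. Its level was 3.01, 2.92 and 2.86 CPM in KI replicates 1 to 3, and 6.26, 6.68 and 3.17 CPM in WT replicates 1 to 3. The KI pigs were nearly alike, while WT replicate 3 stood close to them and apart from the other 2 WT pigs. The KI mean was 2.93 ± 0.0742 CPM and the WT mean 5.37 ± 1.92 CPM (SD, n = 3 each), a log2 difference of -0.87 with a standard error of 0.35 and an unadjusted p of 0.0378 in edgeR. These values rest on 93 to 227 reads per pig, and *MFAP2* was past the limits in 1 of 6 fits with 1 pig left out, the one without WT replicate 3, at -1.14. In the other 5 its log2 fold change lay between -0.89 without KI replicate 1 and -0.69 without WT replicate 2.

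*FBN1* (ENSSSCG00000004658, chromosome 1, 123102011 to 123359649) encodes fibrillin 1, the main structural protein of the microfibril. Its level was 7.05, 6.90 and 9.85 CPM in KI replicates 1 to 3, and 14.4, 15.0 and 8.84 CPM in WT replicates 1 to 3. WT replicate 3 lay between the KI pigs, and it was also the WT pig closest to them for *MFAP2*. A log2 fold change of -0.69 (standard error 0.30) was just outside the limits, with an unadjusted p of 0.0539 from edgeR. *FBN1* was past them without KI replicate 3, at -0.88, and without WT replicate 3, at -0.89. *FBN1* and *MFAP2*, whose products are found in the same microfibrils, thus had fold changes within their standard errors of each other, although *FBN1* was not called.

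*CCN2* (ENSSSCG00000004192), also known as connective tissue growth factor, is a matricellular protein and a widely used readout of TGF-beta and of YAP and TAZ activity. It was measured at 75.3, 73.3 and 19.3 CPM in KI replicates 1 to 3, and at 123, 135 and 87.0 CPM in WT replicates 1 to 3. No KI pig reached the level of a WT pig, and KI replicate 3 was far below the other 2. With a KI mean of 56.0 ± 31.8 CPM against a WT mean of 115 ± 25.1 CPM (SD, n = 3 each), the log2 fold change was the lowest of the 10 genes, -1.04 (standard error 0.49). Its unadjusted p of 0.0692 from edgeR did not pass the limit. The log2 fold change was -0.64 without KI replicate 3 and -1.31 without KI replicate 1. *CCN2* passed both limits with DESeq2, at -1.04.

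**Figure D2:**
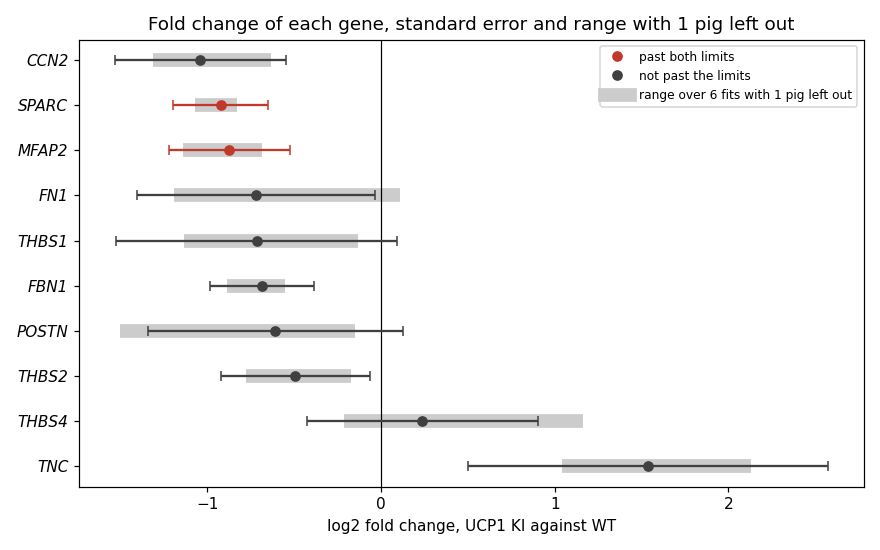
Log2 fold change of each gene, KI against WT, from edgeR (point) with its standard error (bar) and the range over the 6 fits that leave out 1 pig each (grey band), with genes past both limits in red. The band of *SPARC*, from -1.07 to -0.83, is the narrowest, and those of *FN1* and *THBS4* cross 0.

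Thrombospondins are multimeric matricellular glycoproteins. *THBS1* and *THBS2* form trimers that bind CD36 and CD47 and restrain angiogenesis, and *THBS1* also activates latent TGF-beta. *THBS4* forms pentamers and is known from tendon and from muscle attachment. *THBS1* (ENSSSCG00000004789, chromosome 1, 131728781 to 131746098) was measured at 156, 141 and 13.2 CPM in KI replicates 1 to 3, and at 136, 282 and 89.9 CPM in WT replicates 1 to 3. KI replicates 1 and 2 lay among the WT pigs, and KI replicate 3 was below all other pigs. Its fold change of -0.71 on the log2 scale (standard error 0.81, unadjusted p = 0.404 from edgeR) was -0.20 without KI replicate 3, -0.13 without WT replicate 2 and -1.14 without KI replicate 1.

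*THBS2* (ENSSSCG00000004012, chromosome 1, 854473 to 882467) was at 5.82, 5.55 and 2.83 CPM in KI replicates 1 to 3, and at 6.92, 9.35 and 3.74 CPM in WT replicates 1 to 3. In both groups the pig numbered 3 was the lowest, and the groups overlapped. *THBS2* differed by -0.49 on the log2 scale, with a standard error of 0.43 and an unadjusted p of 0.282 in edgeR. That value was -0.17 without WT replicate 2, -0.23 without KI replicate 3 and -0.78 without WT replicate 3. *THBS4* (ENSSSCG00000014117, chromosome 2, 88729531 to 88780759) was at 70.4, 44.1 and 22.2 CPM in KI replicates 1 to 3, and at 75.1, 28.9 and 11.8 CPM in WT replicates 1 to 3. KI replicate 1 and WT replicate 1 were the 2 highest pigs, and the spread within each group was larger than the difference between the means. The fold change of 0.24 on the log2 scale, with a standard error of 0.67 and an unadjusted p of 0.730 in edgeR, changed sign without KI replicate 1, at -0.22, and without WT replicate 3, at -0.19. Without WT replicate 1 it was 1.16. The tendon gene *COMP*, a fellow pentameric thrombospondin, was counted 56 and 188 times in KI replicate 1 and WT replicate 1 and at most 6 times in the other pigs. The part of tendon tissue in the level of *THBS4* was not tested.

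*TNC* (ENSSSCG00000005494, chromosome 1, 255533235 to 255630381) encodes tenascin C, a large matricellular protein that is low in resting muscle and rises with loading and repair. It had the largest spread of the 10 genes, at 40.0, 34.1 and 1.59 CPM in KI replicates 1 to 3, and at 9.23, 14.6 and 2.27 CPM in WT replicates 1 to 3. KI replicates 1 and 2 were above every WT pig, and KI replicate 3 was below every WT pig. The fitted log2 value of *TNC* was 1.54 (standard error 1.04, unadjusted p = 0.178 from edgeR), and it was between 1.04 and 2.13 with each pig left out. Without KI replicate 3, *TNC* was past both limits as higher in KI pigs, at 2.08 with an unadjusted edgeR p of 0.0179.

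*FN1* (ENSSSCG00000016174, chromosome 15, 117658158 to 117737145) encodes fibronectin, the adhesive glycoprotein on which fibrillin and collagen networks are assembled. It was at 47.6, 28.2 and 19.2 CPM in KI replicates 1 to 3, and at 47.0, 98.0 and 11.7 CPM in WT replicates 1 to 3. WT pigs held both the highest and the lowest value, which differed 8.39 times. A log2 difference of -0.72 in *FN1* (standard error 0.68, unadjusted p = 0.324 from edgeR) became 0.11 without WT replicate 2 and -0.47 without KI replicate 3. It was -1.13 without KI replicate 1, and passed both limits at -1.19 without WT replicate 3.

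*POSTN* (ENSSSCG00000009361, chromosome 11, 13225183 to 13258973) encodes periostin, which links collagen to other matrix proteins and marks activated fibroblasts. It was the least counted of the 10 genes, with 37, 10 and 99 reads in KI replicates 1 to 3 and 82, 77 and 36 reads in WT replicates 1 to 3. In CPM these were 1.20, 0.281 and 2.62 for the KI pigs and 2.26, 2.81 and 1.20 for the WT pigs. *POSTN* was high in KI replicate 3, the pig in which most of the other genes were low. The log2 difference of *POSTN*, -0.61 (standard error 0.73, unadjusted p = 0.432 from edgeR), was -0.15 without KI replicate 2, -0.34 without WT replicate 2 and -1.50 without KI replicate 3.

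Pigs within a group differed from each other alike across most of the 10 genes. Among WT pigs, replicate 3 was the lowest for 10 of 10 genes and replicate 2 the highest for 9. Among KI pigs, replicate 3 was the lowest for 8 genes, with *FBN1* and *POSTN* as the exceptions, and replicate 1 the highest for 8. Over all 6 pigs, KI replicate 3 was the lowest for 6 genes and WT replicate 2 the highest for 8. The highest pig was 2.18 times the lowest for *FBN1*, 2.34 times for *MFAP2* and 2.41 times for *SPARC*. At the other end it was 21.4 times the lowest for *THBS1* and 25.2 times for *TNC*. *SPARC*, *MFAP2* and *FBN1*, the genes of the smallest spread, were also the 3 of the 10 with the smallest unadjusted p values. Without KI replicate 3, a choice made after the values were seen, the groups did not overlap for 6 genes, of which *SPARC*, *MFAP2*, *FBN1*, *CCN2* and *POSTN* were lower and *TNC* was higher in KI pigs. With 2 pigs against 3, the groups did not overlap for 14.3% of all genes tested in the lower and 13.2% in the higher direction.

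**Figure D3:**
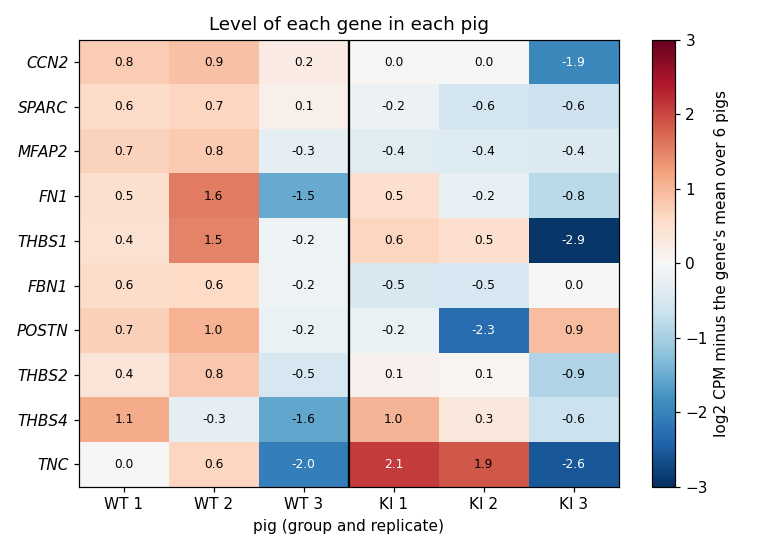
Level of each gene in each pig as log2 CPM minus the mean of that gene over the 6 pigs, with WT replicates on the left and KI replicates on the right. KI replicate 3 is low for *THBS1* (-2.92), *TNC* (-2.55) and *CCN2* (-1.93), while *SPARC* lies between -0.62 and 0.65 in every pig.

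Of 26 further matricellular genes, 18 could be tested, and 5 of them were called lower and 0 higher in KI pigs, where 8.19% of all genes were called in either direction. Their median log2 fold change was -0.58, and 16 of the 18 were negative. With 1 pig left out, the number called ranged from 3 (without KI replicate 2, WT replicate 1 or WT replicate 2) to 8 (without WT replicate 3), and with library size only it was 2. *SPON1* and *THBS3* were called in 6 of 6 fits with 1 pig left out, *SMOC2* in 5, *FSTL1* in 3 and *SMOC1* in 2. The lowest unadjusted p was that of *SPON1*, a heparin-binding matrix protein with a KI mean of 1.66 ± 0.257 CPM and a WT mean of 4.14 ± 0.304 CPM (SD, n = 3 each). The fold change was -1.32 on the log2 scale, with a standard error of 0.30 and an unadjusted p of 0.00275 in edgeR. *THBS3*, another pentameric thrombospondin, had a log2 fold change of -1.32 and no overlap between the groups, whereas the groups overlapped for *THBS1*, *THBS2* and *THBS4*. *SMOC1* and *SMOC2*, which share the SPARC-type calcium-binding domain, fell by 0.75 and 1.36 on the log2 scale without overlap, and *FSTL1*, of the same family, was called lower with overlap at a KI mean of 35.7 CPM and a WT mean of 71.3 CPM. *SPARCL1*, the closest relative of *SPARC*, had a log2 fold change of -0.40 (unadjusted p = 0.235 from edgeR). The most positive value of the list was that of *SPP1*, osteopontin, 0.34, with overlap.

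Of 22 further genes of the elastic fibre, 20 were tested, with 3 called lower, 0 higher and a median log2 fold change of -0.21. The 3 are 15.0% of those tested, against 8.19% of all genes called in either direction. The number called was 1 without KI replicate 1, KI replicate 2, WT replicate 1 or WT replicate 2, and also with library size only and with a term for the replicate number. The median ranged from -0.33 to -0.16 with 1 pig left out, and each of *ELN* and *EFEMP1* was called in 2 of 6 fits with 1 pig left out. *ELN*, which encodes elastin, had a KI mean of 4.14 ± 0.614 CPM and a WT mean of 8.59 ± 3.79 CPM (SD, n = 3 each). The fold change was -1.05 on the log2 scale, with a standard error of 0.39 and an unadjusted p of 0.0289 in edgeR. The groups of *ELN* overlapped, since WT replicate 3 was at 4.30 CPM. *EFEMP1*, a fibulin, had a log2 fold change of -1.11, also with overlap. *FBN3*, a fibrillin, was counted 12, 0 and 4 times in KI replicates 1 to 3 and 130, 43 and 16 times in WT replicates 1 to 3, so its log2 fold change of -3.54 (standard error 1.14) rests on few reads. *LOX*, lysyl oxidase, which cross-links elastin and collagen, had the highest value of the list at 1.36, with 24.9 CPM in KI replicate 3 against 1.68 to 6.35 CPM in the other pigs.

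Of 15 receptor genes of these proteins, which include integrin chains, 12 were in the table. All 12 were tested and 0 were called, with a median log2 fold change of -0.19, which was -0.03 without WT replicate 2 and -0.32 without KI replicate 1. With 1 pig left out, 1 receptor gene was called without KI replicate 1, WT replicate 2 or WT replicate 3. Values ranged from -0.82 for *ITGB3*, the beta 3 integrin chain, to 0.42 for *ITGA9*, the alpha 9 chain that binds tenascin C. Of 18 ligands, receptors, mediators and targets of TGF-beta and YAP signalling, 2 were called lower, 0 higher, and the median was -0.17. The 2 are 11.11% of the list, near the 8.19% of all genes. None was called without KI replicate 2 or without WT replicate 1, and the number was 1 without KI replicate 1, KI replicate 3 or WT replicate 2 and 3 without WT replicate 3. Library size only gave 1, and the median was -0.02 without KI replicate 3. *TGFB3*, a TGF-beta ligand, had a KI mean of 2.94 ± 0.899 CPM and a WT mean of 7.13 ± 3.59 CPM (SD, n = 3 each). The fold change was -1.28 on the log2 scale, with a standard error of 0.46 and an unadjusted p of 0.0245 in edgeR. *SKIL*, an inhibitor of SMAD proteins that TGF-beta itself induces, had a log2 fold change of -0.71 without overlap. Both *TGFB3* and *SKIL* were called in 2 of 6 fits with 1 pig left out. *ANKRD1*, a muscle ankyrin repeat protein and a known YAP target like *CCN2*, had the highest value of the list, 1.03, and did not pass the limits. In *ANKRD1*, as in *TNC*, KI replicates 1 and 2 stood above all WT pigs, at 336 and 330.0 CPM, and KI replicate 3 below them, at 55.1 CPM.

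**Figure D4:**
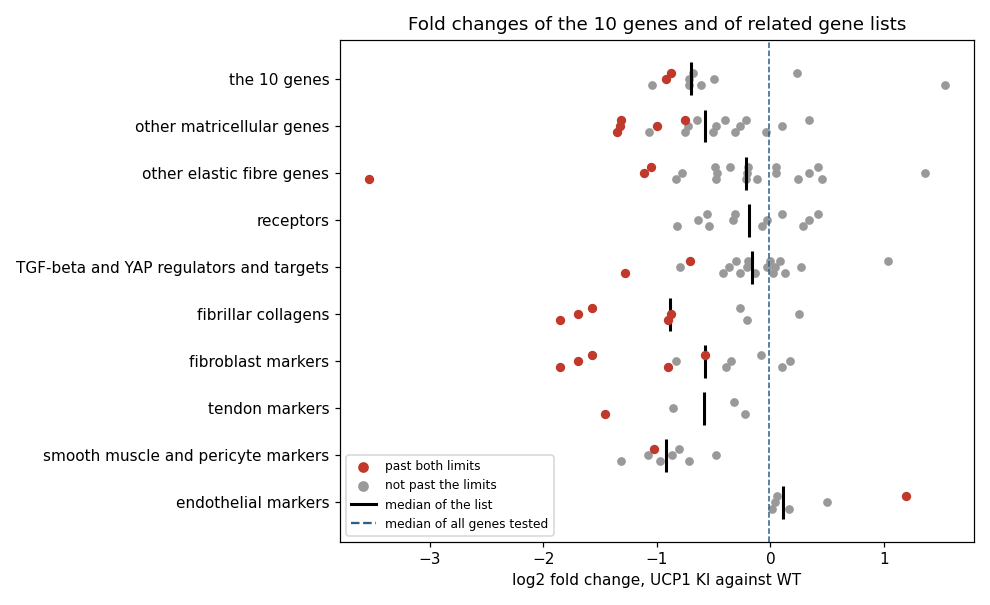
Log2 fold changes of the tested genes in the 10 lists named on the vertical axis, 1 point per gene, in red where past both limits, with the median of the list as a black bar and the median of all genes tested as a dashed line. Among the lists drawn, which leave out leukocyte markers, the red point of *TEK* lies above 0 and the other red points lie below it, and the median of the 10 genes, -0.70, was -0.26 without WT replicate 2.

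Fibrillar collagens form the fibres that many of these proteins bind. A total of 5 of the 8 tested were called lower and 0 higher, with a median log2 fold change of -0.89 and no overlap between the groups for those 5. The 5 are 62.5% of those tested, where 4.34% of all genes were called lower and 7.69% were lower without overlap. With library size only 3 were called. *COL1A1* had -1.86 and *COL1A2* -1.70, both larger in size than the -0.92 of *SPARC*. Of 4 tested genes of collagens IV and VI, 1, *COL6A1* at -0.78, was called lower, and the median was -0.68. *COL1A1*, *COL1A2* and *COL5A3* were called in 6 of 6 fits with 1 pig left out, *COL3A1* in 5 and *COL5A1* in 3. *COL6A1* was called in 2, without KI replicate 1 and without WT replicate 3, but not with library size only.

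The 12 fibroblast markers summed to between 327 and 501 CPM in KI pigs and between 807 and 1286 CPM in WT pigs, without overlap, and 5 of 11 tested markers were called lower, but 2 without WT replicate 2 and 3 without KI replicate 1, KI replicate 2 or WT replicate 1 and with library size only. The 5 are 45.45% of those tested, where 4.34% of all genes were called lower. The list holds 3 collagens that were also counted above, *COL1A1*, *COL1A2* and *COL3A1*. Without these 3 the groups overlapped, with sums between 200.1 and 212 CPM in KI pigs and between 208 and 338 CPM in WT pigs. Of these others, *FAP* and *LUM* were called lower, at -0.91 and -0.57, and in 2 and 1 of 6 fits with 1 pig left out. Over the 11 tested markers 9 had a negative log2 fold change, with a median of -0.57, and those not called ranged from *CD34* at -0.83, *DCN* at -0.39 and *PI16* at -0.35 to *PDGFRA*, a defining marker, at -0.08, *FBLN1* at 0.10 and *DPT* at 0.17. When each of the 10 genes was divided by the summed fibroblast marker counts of the same pig, 9 of the 10 mean log2 ratios were higher on the KI side, and 0 of the 10 were without overlap. For *SPARC* the mean log2 ratio was 0.29 higher in KI pigs (exact permutation test, two-sided, p = 0.3). With genes of collagens IV and VI as the denominator, 6 of the 10 were lower in KI pigs, 0 were without overlap, and *SPARC* was at -0.31. With the 9 markers that are not collagens as the denominator, which was chosen after the values were seen, it was -0.51 for *SPARC* and -0.38 for *MFAP2*, both without overlap and with the smallest exact p of 0.1. With that denominator 7 of the 10 were lower in KI pigs. The sign of *SPARC*, *MFAP2*, *FBN1*, *POSTN*, *THBS1* and *THBS2* relative to fibroblast markers therefore depended on whether collagens were counted among the markers. The part of fibroblast number in the result was not tested.

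Markers of other cells that make these proteins were compared in the same way. Of 8 smooth muscle and pericyte markers, all 8 had a negative log2 fold change, with a median of -0.92 and 1, *NOTCH3*, called lower. The number called was 0 with library size only and without KI replicate 1, KI replicate 2 or WT replicate 1, and 6 without WT replicate 3, and the median was -0.57 without WT replicate 2. Their sum was 343 to 495 CPM in KI pigs and 446 to 954 CPM in WT pigs, with the highest value in WT replicate 2, which was also highest for *THBS1* and *FN1*. Endothelial markers had a median of 0.11 over 6 genes, which was -0.15 without KI replicate 2 and 0.32 without WT replicate 1. Of these, *PECAM1* was at 0.01 and 1, *TEK*, was called higher, in 6 of 6 fits with 1 pig left out, and the sums overlapped. Platelets are a rich source of thrombospondin 1. The 4 platelet markers in the table summed to between 0 and 0.421 CPM in KI pigs and between 0.657 and 1.63 CPM in WT pigs, without overlap. Of these 1 was tested, 0 were called and *GP1BB* had 0 counts in every pig. The tested marker, *GP9*, had 0, 2 and 13 reads in KI replicates 1 to 3 and 49, 8 and 13 in WT replicates 1 to 3. The sums thus rest on few reads. Of 8 tendon markers, 4 were tested and 1, *FMOD*, was called lower, at -1.46 with overlap, and in 2 of 6 fits with 1 pig left out. Tendon marker sums overlapped, from 68.0 to 203 CPM in KI pigs and from 139 to 219 CPM in WT pigs. Most of each sum was *EGR1*, an immediate early gene that many cells express, and the other 7 markers summed to between 5.09 and 14.2 CPM in KI pigs and between 10.6 and 30.2 CPM in WT pigs, also with overlap. *SCX* and *TNMD* stayed under 1 CPM in every pig. The part of these cells in the level of the 10 genes was not tested.

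The mean profile of the 10 genes over the 6 pigs, with each gene standardized on the log2(CPM + 1) scale, was highest in WT replicates 2 and 1 and lowest in KI replicate 3 and WT replicate 3. *THBS2* followed it most closely, with a root mean square difference of 0.267 standard deviations over the 6 pigs, and *POSTN* least, with 1.05. Among all other tested genes with a symbol, the 10 closest were *EVA1B*, *AMPD2*, *ELF4*, *SNORA31*, *FES*, *PAMR1*, *A4GALT*, *SOCS5*, *SRPX* and *RBPMS*, with differences from 0.0770 to 0.159. The groups overlapped for each of these, and none was called, the smallest unadjusted p from edgeR being 0.0814 for *FES*.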

How the data were processed

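The authors extracted total RNA with TRIzol, made mRNA libraries and sequenced paired ends. They used FastQC 0.11.2, Trimmomatic 0.36, HISAT2 2.0, StringTie 1.3.3b and DESeq2 1.12.4, and the submitters' processing notes name the build Sscrofa11.1. Values deposited by the authors are raw counts per Ensembl pig gene, not normalized, in 1 column per pig. The counting program and its strand setting are not given in the sources used here. The total count was 30220951 to 35066624 per pig. A count of 3, taken as the limit for a count of 0, equals 0.0795 to 0.110 CPM and covers counting error only.

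Counts were tested in R 4.3.3 with edgeR 4.0.16 (filterByExpr, TMM, quasi-likelihood F test, condition as the only term, two-sided), with Benjamini-Hochberg adjustment over all 13402 genes. CPM uses TMM-scaled totals, and the standard error is the log2 fold change divided by the square root of F. Exact permutation tests enumerated all 20 assignments of pigs in SciPy 1.17.1, on log2(CPM + 1) or on log2 ratios of counts, with 0.5 added to the gene's count. In simulated counts over 13467 genes, calls were made for 35 of 66 genes simulated with a log2 change of 1 and 63 of 64 with 2, and 635 of 13274 unchanged genes. The simulation gave every gene the same dispersion, 0.178, and no pig that stands apart. Its rates need not hold for genes of larger spread, such as *TNC* and *THBS1*. Pigs are separate samples of a group per the labels, and p values measure the spread between these samples. No 2 libraries agreed within sampling noise.

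Gene names were looked up by Ensembl identifier, and positions were taken from RefSeq on Sscrofa11.1 by symbol, which matched 9 of the 10 genes. The gene lists (matricellular, elastic fibre, receptor, TGF-beta and YAP, collagen and cell type marker genes) and the 10 genes were chosen with earlier results of these data known. The genes named were the 10, in each list the called genes (at most 4 by p) with the lowest and highest log2 fold change, and the 10 closest profiles, and any other gene named was chosen after its values were seen. Alternatives were DESeq2 1.42.0, scaling by median-of-ratios factors or by library size only, filters at any count or at 10 counts in every pig, a replicate block, leaving out each pig, dropping the fold change limit, and other denominators for the ratios.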

Additional observations from a re-analysis of the deposited data

How the results depend on the processing

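*SPARC* was called lower under each of the 12 refits, and *CCN2*, *THBS1*, *THBS2*, *POSTN*, *FBN1*, *MFAP2* and *TNC* kept their sign in each. The count of 2 called genes of the 10 became 1 with library size only (*SPARC*) and 4 with DESeq2 (*SPARC*, *MFAP2*, *CCN2* and *FBN1*), and ranged from 1 to 4 when a pig was left out. It was 1 without KI replicate 1, without KI replicate 2, without WT replicate 1 and without WT replicate 2, and 4 without WT replicate 3. Library size only moved the median over all genes from -0.02 to 0.24 and gave 929 higher and 195 lower genes in place of 515 and 582. With that shift included, the median of the 10 genes was at -0.43, *SPARC* at -0.69 and *MFAP2*, no longer called, at -0.62, *FBN1* at -0.42, *FN1* and *THBS1* at -0.45 and *POSTN* at -0.33. *THBS2* was at -0.24, *CCN2* at -0.81, *THBS4* at 0.35 and *TNC* at 1.78. With a pig left out, *THBS4* ranged from -0.22 (no KI replicate 1) to 1.16 (no WT replicate 1), with -0.19 when WT replicate 3 was left out, and *FN1* from -1.19 to 0.11 (no WT replicate 2). The number of genes called over all genes, 1097, lay between 678 (without KI replicate 2) and 1541 (without WT replicate 3) when a pig was left out, with 718 without WT replicate 2. Over all other listed genes 22 were called, which became 12 with library size only and ranged from 12 (without KI replicate 2, and without either of WT replicates 1 and 2) to 37 (without WT replicate 3) when a pig was left out. With the fibroblast markers that are not collagens as the denominator, 2 genes in place of 0 had ratios without overlap. The replicate numbers are shared by both groups. Deviations from the group means of same-numbered pigs correlated at 0.00, 0.09 and 0.28 over genes, and those of differently numbered pigs at -0.20 to 0.13. The highest value, 0.28, was that of KI replicate 3 and WT replicate 3. On log2(CPM + 1), KI replicate 3 correlated at 0.9615 with WT replicate 3 and at 0.9488 and 0.9389 with KI replicates 1 and 2. What these 2 pigs may share is not stated and was not tested. The sources do not call the numbers pairs, and the main fit did not take them as pairs. With the replicate block 1114 genes were called over all genes and 2 of the 10, *SPARC* at -0.92 and *CCN2* at -1.25, while *MFAP2* at -0.80 was not, and with 3 fibroblast markers in place of 5 and 1 further elastic fibre gene in place of 3. The causes of these shifts were not tested.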

Other observations

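Markers of cells that are not known as main sources of matricellular proteins were compared as well. Of 8 leukocyte markers 7 were tested, all 7 with a positive log2 fold change and a median of 0.79, which was 0.26 without KI replicate 2. In this list 1, the T cell gene *CD3E*, was called higher at 1.84. That is 14.29% of those tested, where 8.19% of all genes were called in either direction. *CD3E* had overlapping groups, with a KI mean of 3.66 ± 3.07 CPM and a WT mean of 1.02 ± 0.348 CPM (SD, n = 3 each), and its call was lost in 4 of 6 fits with 1 pig left out, those without KI replicate 2 and without each WT pig. Summed leukocyte markers lay between 23.7 and 80.2 CPM in KI pigs and between 22.02 and 46.7 CPM in WT pigs. Of the red blood cell markers 2 were tested and 0 were called. The sum of the 3 in the table was lower in every KI pig (11.4 to 75.8 CPM) than in every WT pig (104 to 179.5 CPM). Nearly all of it was *HBB*. The groups overlapped for *ALAS2*, the other tested marker, at 0.938 CPM in KI replicate 1 and 0.657 CPM in WT replicate 2. Adipocyte markers (5 tested, 0 called) had a median of -1.13, which was -0.03 without WT replicate 2, and reached 315 CPM in WT replicate 2 against 99.9 to 183 CPM in the other pigs. For satellite cell and Schwann cell markers 0 of 4 and 0 of 5 tested genes were called, with medians of -0.08 (-0.27 to 0.01 with 1 pig left out) and -0.20 (-0.45 to -0.14). For muscle fibre markers it was 0 of 5, with a median of -0.01 (-0.18 to 0.14).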
